A study of Mus musculus with 6 samples.

Results

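Expression of genes that make up platelet granules and the platelet surface was examined in mouse haematopoietic stem cells after loss of c-myc and N-myc. The members were 10 genes named for this role: the granule chemokines Ppbp and Pf4, the serotonin transporter Slc6a4, von Willebrand factor (Vwf), the receptor subunits Gp1ba, Gp1bb, Gp5, Gp6 and Gp9, and Clec1b. All probe sets of an array (groups of short probes read as 1 value) that its annotation pairs with 1 of these symbols alone were kept, 10 of 45037 non-control probe sets. They stand for 9 of the 10 genes, with a pair of probe sets for Gp1bb. For Gp1ba no probe set carried that symbol alone, so its expression was not analysed here, and 1 further probe set that Gp1bb shares with Septin5 was left out. The members were chosen by their role and by their differences between dKO and control arrays on these same probe sets, which also set the strongly rising Ppbp and Slc6a4 apart from the flat or falling rest. Their differences are therefore a description, given with no p-value, and a count of members past a threshold is printed only beside the share of all probe sets.

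The cells were LT-HSCs, stem cells that sustain blood formation over the long term, sorted as Lin-Sca1+CD150+CD48- from the bone marrow of mice of 8 weeks on a mixed background. Control mice were c-myc f2 N-myc f2, with both Myc genes floxed and no recombinase. The dKO mice were MxCre c-myc f2 N-myc f2, in which the Cre recombinase is driven by the interferon-responsive Mx promoter and so acts in many cell types besides stem cells. Both groups were given pI-pC, a synthetic double-stranded RNA that induces interferon, daily for 2 days, and marrow was taken 3 days after the last dose. There were 3 arrays per group, each of RNA from a pool of 3 dKO or 2 control mice, amplified over 2 rounds. Values are log2 expression values, so a difference of 1 is a 2-fold change. Each probe set has its own brightness, so levels are compared only within a probe set.

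Platelets are shed by megakaryocytes, which descend from stem cells, and part of the stem cell pool already carries platelet transcripts such as Vwf and Pf4. Platelets store chemokines and adhesive proteins in alpha granules and serotonin in dense granules. Their surface complex of GPIb-alpha, GPIb-beta, GPIX and GPV binds von Willebrand factor, GPVI binds collagen, and CLEC-2, encoded by Clec1b, binds podoplanin.

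Array medians lay between 5.9 and 5.97, and all 6 arrays were used throughout. The deleted genes checked the labels: Myc was 10.36 ± 0.23 in control and 7.43 ± 0.3 in dKO arrays (SD, n = 3 per group), and 2 of 3 Mycn probe sets were lower, by 7.35 and 1.61, past the limma threshold used throughout, an adjusted p of 0.05. The Gapdh 3' minus 5' control difference, which grows as RNA degrades, ranged from 2.12 to 2.36 over the control arrays and from 2.39 to 2.47 over the dKO arrays. The same difference for Actb was 0.1 to 0.23 over controls and 0.2 to 0.21 over dKO arrays, so the Gapdh measure moved with the group and the Actb measure did not separate them. The part of RNA quality in the results below was not tested. Probe sets for the array's Trpn control, used as negative controls, lay between 2.13 and 3.92, and a value up to the higher of these is treated as background. In such bulk samples, fewer cells of a type and less RNA per cell cannot be told apart.

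Ppbp and Pf4 are direct neighbours on chromosome 5, and both were higher in dKO arrays. The 250 bases before their start sites are shown, because these adjacent chemokine genes differed in the size of their change, with those of Slc6a4, the other strongly rising gene, and of Gp5, a glycoprotein gene that differed little. The sequences are from RefSeq (build GRCm38.p6), at chr5:90768268-90768517, plus strand for Ppbp, chr5:90772185-90772434, plus strand for Pf4, chr11:76998347-76998596, plus strand for Slc6a4 and chr16:30310782-30311031, minus strand for Gp5. Each is written 5' to 3' along the gene. Capitals mark matches on either strand to AGATAA or TGATAA (the letters bound by GATA factors), to CCGGAA or CAGGAA (letters bound by ETS factors), and to TATAAA.
Ppbp: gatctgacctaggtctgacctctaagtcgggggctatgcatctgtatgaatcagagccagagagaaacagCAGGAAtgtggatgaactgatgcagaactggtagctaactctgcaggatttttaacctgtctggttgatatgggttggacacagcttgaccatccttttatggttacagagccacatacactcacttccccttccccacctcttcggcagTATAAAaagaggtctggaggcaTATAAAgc
Pf4: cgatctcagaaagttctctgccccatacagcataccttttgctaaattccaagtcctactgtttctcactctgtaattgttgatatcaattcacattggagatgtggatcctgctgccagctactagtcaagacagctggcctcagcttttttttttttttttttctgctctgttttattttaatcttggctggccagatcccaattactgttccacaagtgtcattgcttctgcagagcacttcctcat
Slc6a4: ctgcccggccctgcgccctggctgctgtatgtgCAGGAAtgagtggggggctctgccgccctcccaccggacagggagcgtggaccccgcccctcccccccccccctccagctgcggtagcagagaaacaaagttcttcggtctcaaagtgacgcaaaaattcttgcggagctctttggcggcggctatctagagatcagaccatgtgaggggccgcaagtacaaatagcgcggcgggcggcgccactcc
Gp5: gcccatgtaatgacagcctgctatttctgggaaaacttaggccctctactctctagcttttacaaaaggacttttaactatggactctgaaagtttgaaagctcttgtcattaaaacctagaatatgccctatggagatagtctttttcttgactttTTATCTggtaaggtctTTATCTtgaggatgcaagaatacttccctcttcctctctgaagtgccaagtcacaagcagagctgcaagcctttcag

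The pair of neighbouring chemokine promoters shared none of these letters. Ppbp held TATAAA at 2 places, starting 30 and 8 bases before the start site, and CAGGAA once, and the Pf4 window held no match. The GATA letters were found in 4 of the 9 member promoters at hand (Gp1ba, Gp5, Gp6 and Clec1b), against 16.6% of 32851 RefSeq promoters of the same length. The ETS letters were in 3 (35.1% of all promoters), TATAAA in 2 (12.4%) and the Myc E-box CACGTG in none (6.02%). These are matches of letters in short windows, and they show neither a bound site nor its absence.

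Ppbp, the precursor of the platelet chemokine CXCL7 and related peptides, had the largest difference among the members. Its control values were 6.23, 5.89 and 5.32, and its dKO values 11.96, 11.1 and 11.41. All dKO arrays lay far above all controls, with 4.86 between the groups. The means were 5.81 ± 0.46 and 11.49 ± 0.44 (SD, n = 3 per group), a 51.0-fold difference (5.67 ± 0.3 SE on the log2 scale). All control arrays lay above the negative control range. That range rests on 3 probe sets, and the control mean of 5.81 was below the array medians. Whether the controls hold true signal was not tested.

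Pf4, platelet factor 4, was bright already in control cells and differed far less. Control values were 11.1, 11.15 and 10.88, and dKO values 12.51, 11.8 and 12.16. The groups did not overlap, with 0.65 between them. The difference was 2.16-fold, or 1.11 ± 0.2 (SE, log2).

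Slc6a4, the transporter that loads platelets with serotonin from plasma, went from near background to a clear signal. The controls were 4.08, 4.06 and 4.04, only just above the highest negative control value. The dKO arrays read 9.08, 7.99 and 8.85, a mean of 8.64 ± 0.57 (SD, n = 3) against 4.06 ± 0.02. The difference was 4.58 ± 0.27 (SE, log2), or 23.9-fold. The control mean was 0.14 above the highest negative control value.

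Vwf, the large adhesive protein of alpha granules and of endothelium, and a marker of platelet-primed stem cells, was the member with the largest fall. Its controls were 9.56, 9.34 and 9.02 and its dKO values 8.27, 8.36 and 8.17. Every dKO array was below every control, with 0.66 between the groups. The difference was -1.04 ± 0.17 (SE, log2), or 2.06-fold lower. The dKO arrays were also closer to each other (SD 0.09) than the controls (SD 0.27).

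The subunits of the von Willebrand factor receptor differed little and in both directions. Gp5, encoding GPV, was 7.06, 6.33 and 6.52 in controls and 7.44, 6.96 and 7.12 in dKO arrays. The groups overlapped, since the first control exceeded the second dKO array, and the difference was 0.54 ± 0.23 (SE, log2). Gp9, encoding GPIX, was 7.28, 7.33 and 7.32 in controls and 7.61, 7.35 and 7.58 in dKO arrays. All dKO values were higher, though by as little as 0.02, and the difference was 0.2 ± 0.13. Gp1bb, encoding GPIb-beta, was lower on average at both of its probe sets, by 0.44 ± 0.3 at one and by 0.23 ± 0.14 at the other. At the former the controls were 7.23, 7.61 and 7.07 and the dKO arrays 6.23, 7.36 and 7.0, and at the latter they were 7.44, 7.31 and 7.18 against 7.0, 7.2 and 7.05. The groups overlapped at both.

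The signalling receptors Gp6 and Clec1b showed no clear difference, and Gp6 was not measured above background. Gp6, the collagen receptor GPVI, read 3.84, 3.99 and 3.84 in controls and 4.05, 3.92 and 3.63 in dKO arrays, with both means in the negative control range. Nothing about its expression can be read from that probe set. Clec1b, encoding CLEC-2, read 4.93, 6.13 and 6.33 in controls and 5.95, 5.74 and 5.39 in dKO arrays. The dKO values fell within the wide control range, and the difference was -0.1 ± 0.37 (SE, log2).

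**Figure D1:**
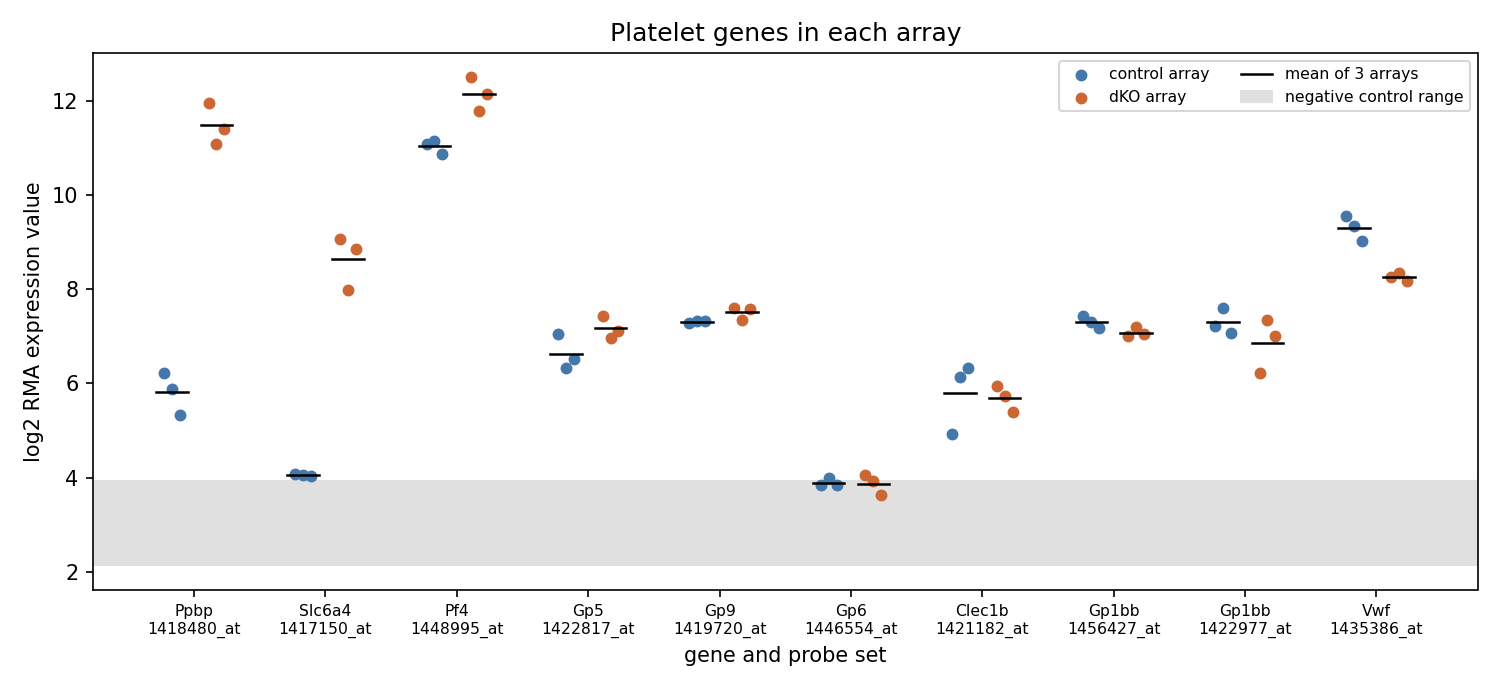
Log2 expression value (vertical axis) of each platelet gene probe set (horizontal axis, ordered by difference) in the 3 control and 3 dKO arrays, with each group's mean as a line and the negative control range of 2.13 to 3.92 shaded. Ppbp and Slc6a4 are far higher in dKO arrays, Vwf is lower, and Gp6 lies at background.

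Of the 10 member probe sets, 5 had a positive and 5 a negative difference, with a median of 0.09 against -0.01 over all probe sets. The groups did not overlap at 5, of which 4 were higher and 1 lower in dKO arrays, where 27.4% of all probe sets did not overlap. The limma threshold was passed by 4 members, of which Ppbp, Pf4 and Slc6a4 were higher and Vwf lower, against 6.99% of all probe sets. Nothing is read from these shares, because the same comparison was in view when the members were chosen. With 1 array left out the count ran from 2 (without control replicate 2, dKO replicate 1 or dKO replicate 3) to 4 (without dKO replicate 2). Pf4 did not pass without any single control array or without dKO replicate 1 or 3. Vwf did not pass without control replicate 2 or dKO replicate 1 or 3, and Ppbp and Slc6a4 passed in each case. These outcomes rest on the comparison by which the members were chosen, so they are a description and no support for a difference. In order of size, Ppbp and Slc6a4 stood apart, with 4.58 for the smaller of them and 1.11 for Pf4, the next. The other members ran from 0.54 (Gp5) down to -1.04 (Vwf).

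**Figure D2:**
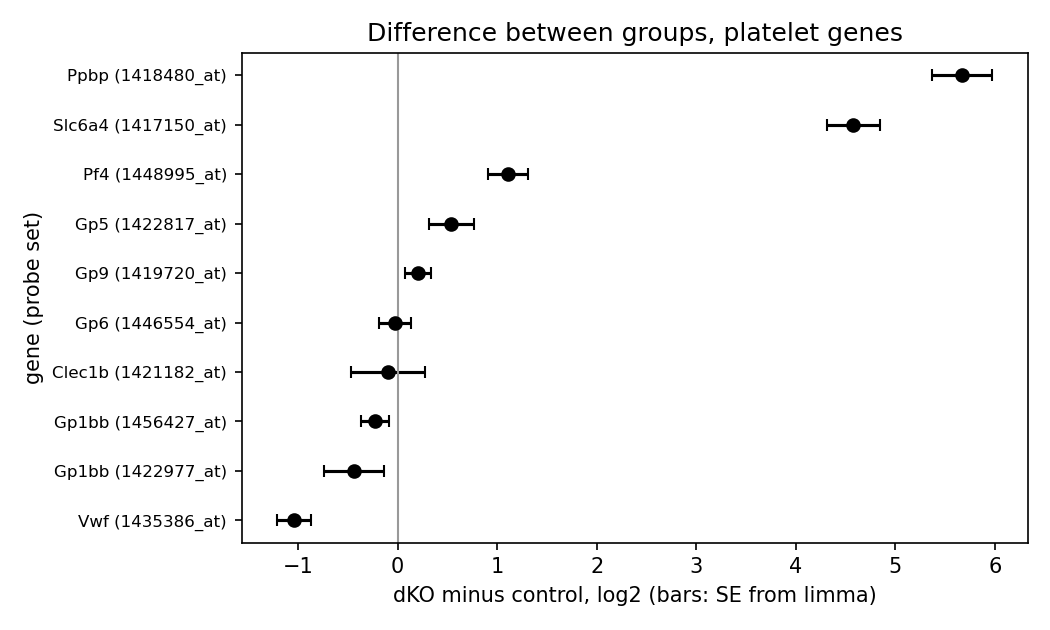
Difference between dKO and control means on the log2 scale (horizontal axis) for each member probe set (vertical axis), with bars of 1 SE from limma. Ppbp at 5.67 and Slc6a4 at 4.58 lie apart from the other members, which run from 1.11 for Pf4 to -1.04 for Vwf.

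The members with positive differences had the same order among the dKO arrays. In Ppbp, Slc6a4, Pf4, Gp5 and Gp9, all 5 with a positive difference, dKO replicate 1 was the highest, replicate 3 came next and replicate 2 was the lowest. None of the 5 probe sets with a negative difference had that order. It was seen in 17.9% of all probe sets, in 18.2% of those called higher, in 30 (21%) of the 143 genes of the platelet lists described next, and in 16 (37.2%) of the 43 of them that were higher. This order was singled out after the values were seen. Among dKO arrays the members' values ranged over as much as 1.13 (one Gp1bb probe set) and 1.09 (Slc6a4), and as little as 0.19 (Vwf).

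Other genes of platelets and megakaryocytes were taken from 8 lists, each gene represented by its brightest probe set. The lists were chosen with earlier results of these data known, so their shares of calls are a description and not a test. Of 143 distinct genes measured besides the members, 43 (30.1%) were higher in dKO arrays and 3 (2.1%) lower at a limma adjusted p of 0.05 (called, in what follows), against 4.49% higher and 3.56% lower of 18193 genes. Of these 46 called genes, 20 were called with any 1 of the 6 arrays left out. Other probe sets existed for 28 of them. For 16, at least 1 other probe set had the same call, for 11 no other probe set passed, and for Ccnd3 alone 1 went the opposite way. The shares over all genes included dim genes. In a fit of the 22807 probe sets whose mean level exceeded the lowest array median, 2049 were higher and 1920 lower. These are larger shares than the 3.57% higher and 3.41% lower over all probe sets. The shares over all genes are therefore a low background for bright list genes.

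Platelet surface receptors were higher more often than lower. Of 22 measured, 11 were higher, 1 lower and 10 did not pass (54.5% called against 8.05% of all genes), with a median difference of 0.68 against 0.01 over all genes. Selp, the granule membrane adhesion receptor P-selectin, had control values of 6.58, 6.94 and 6.85 and dKO values of 10.5, 9.88 and 10.43. The groups were far apart, and Selp rose by 3.48 ± 0.2 (SE, log2, limma adjusted p = 7.94e-04), with its other probe sets at 3.57 and 3.41. The ATP-gated channel P2rx1 rose by 1.65 ± 0.17 (adjusted p = 0.00398) and the tetraspanin Cd9 by 1.38 ± 0.16 (adjusted p = 0.006). Itga2b and Itgb3, the subunits of the fibrinogen receptor, rose by 1.16 ± 0.17 and 1.41 ± 0.25. Itga2b was 8.2, 8.31 and 8.59 in controls and 9.72, 9.37 and 9.5 in dKO arrays. The call for Itgb3 was lost without control replicate 3 or any single dKO array (adjusted p up to 0.0728). The junctional adhesion protein Esam was the gene that fell, by 1.37 ± 0.18 (adjusted p = 0.00866). Treml1, a receptor of platelet granule membranes, differed by -0.95 (adjusted p = 0.0878), and the ADP receptor P2ry12 by -0.48 (adjusted p = 0.304). The receptors called numbered 6 without dKO replicate 1 and at most 9, without control replicate 1 or 2.

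**Figure D3:**
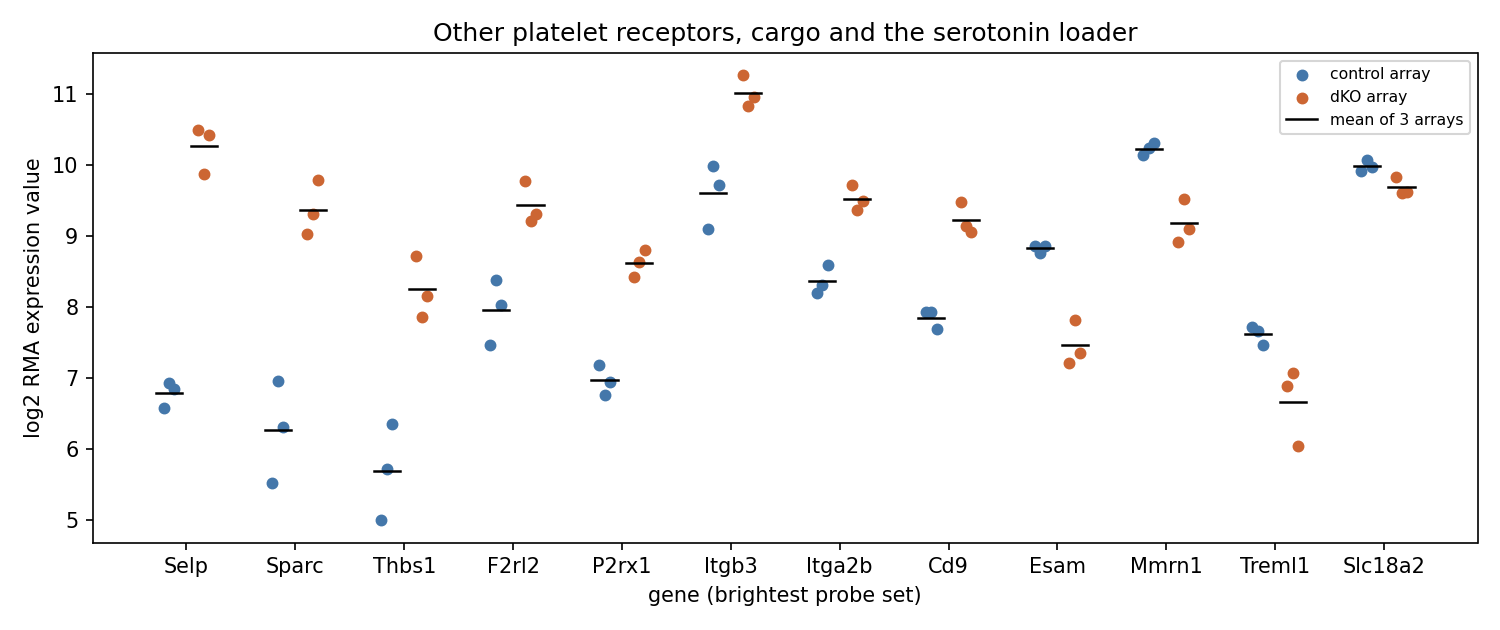
Log2 expression value (vertical axis) of 12 further platelet genes at their brightest probe set (horizontal axis) in the 3 control and 3 dKO arrays, with group means as lines. Selp, Sparc and Thbs1 show the widest gaps, with differences of 3.48, 3.11 and 2.56, whereas Esam and Mmrn1 are lower in dKO arrays.

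Granule cargo changed in both directions. Of 19 measured genes, 4 were higher, 1 lower and 14 did not pass (26.3% called, median 0.35). Sparc, a matrix glycoprotein stored in alpha granules, was 5.53, 6.96 and 6.31 in controls and 9.03, 9.31 and 9.79 in dKO arrays, a rise of 3.11 ± 0.37 (SE, log2, limma adjusted p = 0.006). Thrombospondin 1, encoded by Thbs1, was 5.0, 5.73 and 6.36 against 8.73, 7.87 and 8.16 and rose by 2.56 ± 0.37 (adjusted p = 0.0108). In both genes every dKO array exceeded every control by a wide margin. One of the other Sparc probe sets did not differ in this way, at 0.06 (adjusted p = 0.919). The cytokine gene Tgfb1 rose by 1.15 ± 0.15 (adjusted p = 0.00802), with another probe set at 0.11 (adjusted p = 0.884). The granule proteoglycan gene Srgn rose by 0.57 ± 0.13 (adjusted p = 0.0458), a call lost with any 1 array left out (up to 0.132). Mmrn1, the factor V carrier of alpha granules, fell by 1.05 ± 0.18 (adjusted p = 0.0202), a call lost without any single control array or dKO replicate 1 or 3 (up to 0.0687). The cargo gene Clu did not pass at its brightest probe set, with a difference of -1.18 (adjusted p = 0.0715). Another of its probe sets was called lower, at -0.82 (adjusted p = 0.042), and the rest did not pass, at -1.25 (adjusted p = 0.151) and -1.48 (adjusted p = 0.103). Only 3 cargo genes were called without any single control array or without dKO replicate 1 or 3, and 5 without dKO replicate 2.

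At their brightest probe sets, the other genes of serotonin handling did not pass the threshold. None of 11 passed by limma, 2 had an unadjusted p under 0.05, and the median difference was -0.15. Slc18a2, which packs serotonin into granules, was 9.92, 10.07 and 9.98 in controls and 9.84, 9.61 and 9.63 in dKO arrays (difference -0.3 ± 0.14 SE, adjusted p = 0.264). Its controls were already bright, and the difference was small beside that of Slc6a4. Tph1, the enzyme that starts serotonin synthesis outside the brain, was near background in both groups, at 4.26 and 4.09. Tgm2, a transglutaminase that couples serotonin to proteins, differed by 0.9 ± 0.21 (adjusted p = 0.0516) and was called without dKO replicate 1. Others of its probe sets were called, with differences of 0.99 ± 0.2 (adjusted p = 0.0319) and 0.9 ± 0.21 (adjusted p = 0.0467). Maoa, the monoamine oxidase that breaks serotonin down, differed by -0.54 at its brightest probe set (adjusted p = 0.484) but fell by 1.91 ± 0.2 at another (adjusted p = 0.0042), to a dKO mean of 3.51 in the negative control range. The serotonin receptor Htr7 differed by 0.57 (adjusted p = 0.191). Of the 11 genes, 4 had both means in the negative control range.

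Genes of granule formation and release were higher or did not pass. Of 23, 6 were higher, none lower and 17 did not pass (26.1% called, median 0.41). Nbeal2, which is needed to form alpha granules, rose by 1.16 ± 0.14 (SE, log2, limma adjusted p = 0.006). At its other probe set the groups overlapped, with a difference of 0.53 (adjusted p = 0.252). The fusion proteins encoded by Stx11 and Snap23 rose by 1.53 ± 0.19 (adjusted p = 0.00654) and 0.9 ± 0.14 (adjusted p = 0.0139). The Snap23 call was lost without dKO replicate 1 or 2 (up to 0.0519). Rab27b, a GTPase of granule transport, differed by 0.38 (adjusted p = 0.382), and Vps33b, which sorts granule cargo, by 0.34 (adjusted p = 0.204). Only 2 genes were called without dKO replicate 1 or 2 and 4 without control replicate 1.

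The pathway downstream of GPVI and CLEC-2 was higher in part, although Gp6 was at background and Clec1b overlapped between groups. Of 19 genes, 7 were higher, none lower and 12 did not pass (36.8% called, median 0.49). Fcer1g, the Fc receptor gamma chain with which GPVI pairs, was 6.31, 6.5 and 6.23 in controls and 8.87, 8.47 and 8.45 in dKO arrays. The groups did not overlap, and the rise was 2.25 ± 0.17 (SE, log2, limma adjusted p = 0.00171). Fcer1g is also expressed in many myeloid cells. Prkcq, a protein kinase C, rose by 1.48 ± 0.18 (adjusted p = 0.00694), and talin, encoded by Tln1, which activates integrins, by 1.06 ± 0.15 (adjusted p = 0.0114). The kinase Syk differed by 0.79 (adjusted p = 0.0885) and the adaptor Lat by 0.01 (adjusted p = 0.976). The count fell to 4 without dKO replicate 1 and was at most 6, without control replicate 3.

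Megakaryocyte transcription factors mostly did not pass. Of 19, 1 was higher, 1 lower and 17 did not pass (10.5% called against 8.05% of all genes, median 0.21). Gata2, a factor of stem and progenitor cells, rose by 0.63 ± 0.13 (SE, log2, limma adjusted p = 0.0363), a call lost with any 1 array left out (up to 0.111). The cofactor gene Ldb1 fell by 0.85 ± 0.13 (adjusted p = 0.0142) and lost its call without dKO replicate 1 (up to 0.0567 over all fits). Runx1 differed by 0.54 (adjusted p = 0.084), Gata1 by 0.66 (adjusted p = 0.145), Nfe2 by 0.25 (adjusted p = 0.287) and Fli1 by 0.03 (adjusted p = 0.937). Without any 1 array 1 factor was called, except that none was without dKO replicate 1, where 3 had an unadjusted p under 0.05.

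Cytoskeleton and polyploidy genes of megakaryocytes were higher in 12 of 24 cases, with none lower (50% called, median 0.66). The tubulin gene Tuba8 rose by 2.68 ± 0.25 (SE, log2, limma adjusted p = 0.00313) and the cell cycle inhibitor gene Cdkn1a by 3.05 ± 0.3 (adjusted p = 0.00383). The cyclin gene Ccnd3 rose by 1.72 ± 0.14 at its brightest probe set (adjusted p = 0.0022) and fell by 2.21 ± 0.47 at another (adjusted p = 0.0368), so its direction depends on the probe set. Tubb1, the tubulin that defines platelets, differed by 0.12 (adjusted p = 0.723). Its only probe set was dim, with means of 5.42 in control and 5.55 in dKO arrays, below the array medians. Whether it holds true signal was not tested. Leaving out 1 array, 7 genes were called without control replicate 1 or dKO replicate 1 and up to 9 without control replicate 2, control replicate 3 or dKO replicate 2. Many of these genes act in all cells.

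**Figure D4:**
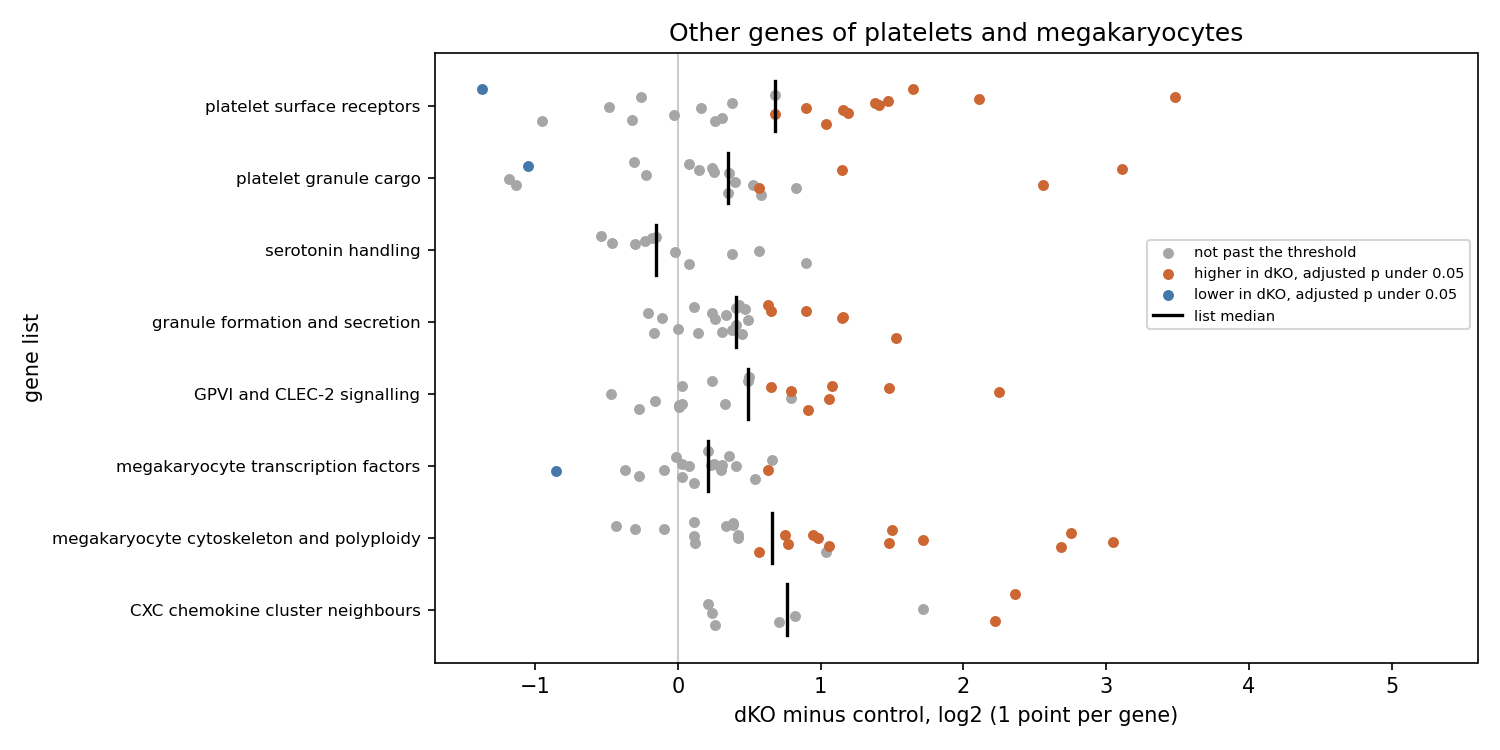
Difference between dKO and control on the log2 scale (horizontal axis) for each gene of 8 lists (vertical axis, 1 point per gene), coloured by whether a limma adjusted p of 0.05 was passed and in which direction, with list medians as black lines. Medians run from -0.15 for serotonin handling to 0.76 for the CXC chemokines.

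The other CXC chemokines were examined because Ppbp and Pf4 belong to this family and lie in its cluster. Of 8, 2 were higher and none lower (25% called, median 0.76), the interferon-induced Cxcl10 by 2.36 ± 0.39 (SE, log2, limma adjusted p = 0.0171) and Cxcl9 by 2.22 ± 0.41 (adjusted p = 0.024). Cxcl9 had a control mean of 3.16, in the negative control range, and lost its call without any single control array or dKO replicate 1 or 2 (up to 0.0825). Cxcl10 lost its call without control replicate 1 or 3 (up to 0.0596), and neither was called in those fits, where 4 of the 8 had an unadjusted p under 0.05. Cxcl5 and Cxcl3, the genes on either side of the Ppbp and Pf4 pair, were dim. Cxcl5 had both means in the negative control range (2.79 and 3.03), and Cxcl3, which did not pass (adjusted p = 0.0786), read 2.44, 2.13 and 2.08 in controls and 5.1, 3.6 and 3.12 in dKO arrays. Only the first dKO array lay above the negative controls. Farther out, Rassf6 fell by 0.96 (adjusted p = 0.015) to a dKO mean of 3.43 in the negative control range, and Albfm1 rose by 1.34 (adjusted p = 0.0112). The Rassf6 call was lost without control replicate 2 or dKO replicate 1 or 3 (up to 0.0561).

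**Figure D5:**
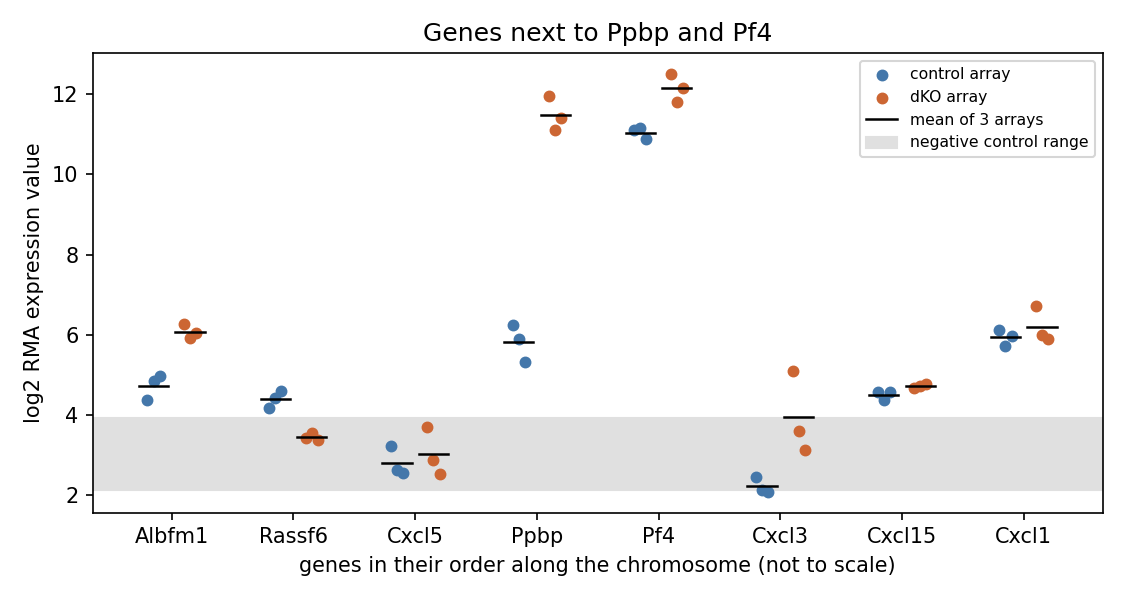
Log2 expression value (vertical axis) of Ppbp, Pf4 and the genes next to them, in their order along the chromosome (horizontal axis, not to scale), in the 3 control and 3 dKO arrays, with group means as lines and the negative control range shaded. Levels of different genes are not comparable, but Cxcl5 and Cxcl3, on either side of the pair, lie largely in the negative control range.

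The genes whose values ran most like those of a member were found by the Euclidean distance over the 6 arrays, each probe set centred on its own control mean, among genes that are not members. For Ppbp they were the small GTPase gene Gem (distance 1.82), Csrp3, which encodes a LIM protein of muscle (2.04), and the granzyme gene Gzmb (2.68). For Slc6a4 they were Csrp3 (0.75), the activation antigen Cd69 (1.34) and Cd244a (1.47), a SLAM family receptor. The nearest to Pf4 were Epg5 (0.28), Dock5 (0.31) and Tnf (0.33), and to Vwf Pck2 (0.22), Insr (0.27) and Timm8a1 (0.28). The distance depends mostly on the size of the difference, and Gzmb rose by 7.17 against 5.67 for Ppbp. None of these 11 genes was on the platelet lists, which hold only 143 of 18193 genes, so nothing is read from that.

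Marker levels of the cell types that could carry these transcripts were set beside the members. RNA levels do not test the sort, which was made on surface proteins. Slamf1, which encodes CD150, was 9.16 and 9.24 in the group means. Cd48, whose product the sort excludes, rose by 1.16 ± 0.21 (SE, log2, limma adjusted p = 0.0214). That call was lost without any single control array or dKO replicate 1 or 2 (up to 0.0765). Of 14 genes of the sort gate and of stem cells, 3 were higher (Cd48, Thy1 and Gata2) and 4 lower (Kit, Hlf, Mllt3 and Hoxb5). Their summed level was 13802 to 14200 in controls against 10663 to 12577 in dKO arrays. That sum and these counts mix Cd48, which marks cells outside the gate, with genes of stem cells. Kit fell by 0.87 ± 0.12 (adjusted p = 0.0101) and kept its call with each array left out, and the other 6 each lost theirs without at least 2 of the arrays in turn. The megakaryocyte and platelet markers numbered 13, of which Pf4, Gp9, Gp1bb and Gp6 are members and were set aside. Of the other 9, 3 were called higher (Itga2b, Itgb3 and the signalling regulator Rgs18), none was called lower and 6 did not pass. Among those 6, Treml1 differed by -0.95 (adjusted p = 0.0878), with every dKO array below every control, and P2ry12 by -0.48. Tubb1, Nfe2, Rab27b and Nrgn had positive differences. The Rgs18 call did not survive the removal of any single array (up to 0.111). The summed level of these 9, adding expression values off the log scale, ran from 3923 to 4818 over controls and from 6574 to 7704 over dKO arrays, and none of them had both means in the negative control range. Bright genes weigh most in that sum, among them Nfe2 (means of 10.25 in control and 10.51 in dKO arrays), Rgs18 (9.87 and 10.52) and Itgb3 (9.61 and 11.02). The part of megakaryocytes or platelets in the results was not tested.

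Mast cells and basophils can also express Slc6a4. Of 15 of their markers, 2 were higher and 1 lower, with a summed level of 4059 to 4383 against 4524 to 4844. The stem cell genes Gata2 and Kit, with Slc18a2, made up 85.8% to 93.6% of that sum, and without Gata2 it was 2417 to 2537 in controls and 1855 to 2053 in dKO arrays. Without all 3, it was 260 to 360 against 408 to 642. The receptor chain Fcer1a rose by 1.93 ± 0.42 (SE, log2, limma adjusted p = 0.0406, lost without control replicate 1 or 2 or any single dKO array, up to 0.122), and Gata2 and Kit were the others. The protease genes Mcpt1 and Mcpt2 and the receptor gene Mrgprb1 had both means at or below the highest negative control value, and Cpa3 differed by 1.19 (adjusted p = 0.186). Of 13 monocyte and macrophage markers 2 were higher, C1qb and Fcgr1, with a summed level of 441 to 582 against 728 to 812. Other probe sets of Vcam1 were higher too, by 0.99 (adjusted p = 0.032) and 2.11 (adjusted p = 0.0433), as was another of Ccr2, by 2.26 (adjusted p = 0.0267), though neither gene passed at its brightest probe set. Further Ccr2 probe sets did not pass, at 0.68 (adjusted p = 0.475) and 0.38 (adjusted p = 0.426). A further C1qb probe set rose by 2.47 (adjusted p = 0.0386), while another was at background in both groups (2.95 and 2.96). Another Fcgr1 probe set differed by -0.12 (adjusted p = 0.82). C1qb lost its call without control replicate 1 or any single dKO array (up to 0.0693), and Fcgr1 without any single control array or dKO replicate 1 or 2 (up to 0.103). Of 11 endothelial markers, set beside Vwf, 1 was higher (Pecam1) and 2 lower (Tek and Egfl7; summed level 1591 to 1837 against 1454 to 1470), and Cdh5, which defines endothelium, was 4.35 and 4.7. Tek fell by 2.25 ± 0.18 (adjusted p = 0.0022), a receptor that stem cells express too. Pecam1 lost its call without dKO replicate 1 or 3 (up to 0.0554) and Egfl7 without any single array (up to 0.0802). Of 11 erythroid markers 1, Klf1, was lower, by 1.64 ± 0.26 (adjusted p = 0.015), with a summed level of 6700 to 7340 against 6003 to 6344. Car2, which did not pass, made up 88.9% to 93.1% of that sum, and without it the sum was 725 to 783 against 435 to 594. By limma, none of 13 T and NK cell, 11 granulocyte or 8 B cell markers passed, with 1, 2 and 1 at an unadjusted p under 0.05. Their summed levels overlapped between the groups, at 830 to 956 against 769 to 1032, 948 to 2867 against 399 to 1381, and 414 to 741 against 382 to 643. Beside these marker counts, 8.05% of all genes were called in either direction, and nothing is read from the counts. The part of these cell types in the members' differences was not tested.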

How the data were processed

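Each of the 6 arrays gave 1 value per probe set. The authors deposited log2 expression values made with RMA, per the submitters' processing notes, with no version or settings given. RMA scales arrays to each other, so changes are relative, and it compresses differences of dim probe sets. The number of arrays limits the precision. Probe sets were named through the platform's annotation: 34945 of 45037 had 1 symbol, 932 several and 9160 none, and 34741 of the first matched the RefSeq table (GRCm38.p6). The 64 array controls were left out of the fit.

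Groups came from the sample titles. limma 3.58.1 (lmFit and eBayes, R 4.3.3) was fitted to all probe sets, dKO minus control, with Benjamini-Hochberg adjustment over 45037. It was tested on simulated data. P-values set the difference between groups against the spread between pools, moderated over all probe sets. Each pool averages 2 control or 3 dKO mice, so the spread between single mice was not measured. The members and lists were chosen with earlier results of these data known. Named were all members, the 3 genes of smallest p in each list, all called genes where 5 or fewer were, defining markers, and the 3 genes most like Ppbp, Slc6a4, Vwf and Pf4. Others were chosen after their values were seen.

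Alternatives were median centring, quantile normalization, leaving out dim probe sets, array weights, limma's trended and robust prior, a replicate block, the mean over a gene's probe sets, and leaving out each array. Marker sums without single bright genes or members were added after seeing the data.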

Additional observations from a re-analysis of the deposited data

How the results depend on the processing

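Over 12 alternative fits every member difference except those of Gp6 and Clec1b kept its sign. Those of Gp6 ran from -0.12 to 0.09 and those of Clec1b from -0.53 to 0.17, over 11 fits each, since both dropped out under the filter on level. Ppbp ran from 5.43 to 5.88, Slc6a4 from 4.36 to 4.91, Pf4 from 0.93 to 1.29 and Vwf from -1.18 to -0.91. Ppbp and Slc6a4 passed the threshold in all 12 fits, Pf4 in 6 and Vwf in 9. Nothing is read from these counts, since the members were chosen by the same comparison. Same-numbered arrays did not deviate together (r of -0.0164, 0.00238 and 0.0134), and not every array correlated best with its own number. With the replicate block 1530 probe sets were called in place of 3146, with 3 member probe sets, 6 surface receptors, 2 granule formation genes, 4 genes of GPVI and CLEC-2 signalling, 1 CXC chemokine and 0 transcription factors, of which 4 had an unadjusted p under 0.05. Of the 46 called platelet list genes, 21 lost their call with the block. Serotonin handling had 1 call with each array centred on its median, with the filter on level or with the trended robust prior, and 2 with the mean over all probe sets of a gene. Transcription factors had 1 call after quantile normalization and 4 with the trended robust prior, and CXC chemokines 1 with the filter on level. With 1 array left out, 1338 to 1674 probe sets were called, 2 to 4 of them members. The lists had 6 to 9 calls (receptors), 3 to 5 (cargo), 0 to 1 (serotonin), 2 to 4 (granule formation), 4 to 6 (signalling), 0 to 1 (transcription factors), 7 to 9 (cytoskeleton) and 0 to 2 (CXC chemokines). Fewer arrays give fewer degrees of freedom; otherwise the cause of these shifts was not tested. Signals near the negative control range limit Gp6 and the controls of Slc6a4.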

Other observations

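The genes next to the other members along their chromosomes mostly did not pass the threshold. Over the 3 protein-coding genes on each side of each measured member, 40 neighbours were measured, members left out. By limma, 4 were higher, 1 lower and 35 did not pass, where 8.05% of all genes were called in either direction. Nothing is read from this count. Besides Albfm1 and Rassf6 near Ppbp these were Cd9, the tetraspanin gene next to Vwf, which rose by 1.38 while Vwf was lower by 1.04, and Hes1, a Notch target near Gp5, which rose by 0.84 (adjusted p = 0.0189, lost without any single control array or dKO replicate 1 or 3, up to 0.0673). The other was Clec7a, the fungal glucan receptor gene near Clec1b, which went from a control mean of 3.58 in the negative control range to 5.25 (difference 1.66, adjusted p = 0.0175, lost without any single control array or dKO replicate 2, up to 0.0585). All 5 measured genes around Slc6a4 were among those that did not pass.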
